A study of Mus musculus with 11 samples.

Results

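Cycling Foxp3-positive T cells are cells with RNA of Foxp3, the defining gene of regulatory T (Treg) cells, and RNA of genes of cell division. They were taken from 1 droplet-based single-cell RNA library of CD44-positive CD4 T cells, sorted from the draining lymph nodes of C57BL/6 mice heterozygous for a Sostdc1-EGFP reporter allele. A cell belonged to the group if it had at least 1 UMI (unique molecular identifier, a count of 1 captured RNA molecule) of Foxp3, at least 1 UMI of 2 or more of the 4 cycling genes Mki67, Top2a, Birc5 and Cdk1, no UMI of the B cell gene Cd79a, and at least 2 UMIs summed over Cd3d, Cd3e and Cd3g. Of 13190 cells that passed the filters, 537 met the rule. They made up 4.07% of the cells (95% interval 3.74 to 4.42), 20.7% of the 2590 Foxp3-positive T cells (19.2 to 22.3) and 43.0% of the 1250 cycling T cells (40.2 to 45.8).

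The series as a whole holds 11 samples on Sostdc1-expressing follicular T cells; the other 10 were not analysed here. All cells described come from the reporter library, so every group shares the strain, the reporter allele and the sort. The labels do not state the number, age or sex of the mice or any immunisation, and pooled mice would count as 1 library. Cycling Foxp3-positive cells were set against 1527 Foxp3-positive T cells with no UMI of any of the 4 cycling genes, called non-cycling below, and against 713 cycling T cells without a Foxp3 UMI. A further group, 6481 T cells with neither, serves as a level to read the others by. Non-cycling names the gate alone, and such a cell may still hold other cell cycle RNA. With 1 library no group has a replicate, so no test was made. Intervals are exact 95% intervals, Poisson for sums of UMIs and binomial for shares of cells, and they cover counting error only.

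Foxp3 encodes the transcription factor that sets up and holds the Treg state, in which a CD4 T cell restrains other immune cells through surface receptors such as CTLA-4 and through its high-affinity receptor for interleukin-2. Treg cells in lymph nodes range from resting cells that recirculate to activated, effector-type cells. In a dividing cell, genes of DNA replication are transcribed around the S phase and genes of chromosome segregation later, in G2 and mitosis. The genes of segregation are held down in resting cells by complexes that act at a promoter element known as the CHR, often with CCAAT boxes nearby.

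Of the 4 cycling genes, Mki67 encodes the proliferation antigen Ki-67, which coats mitotic chromosomes, Top2a the topoisomerase that untangles DNA, Cdk1 the kinase that drives mitosis, and Birc5 survivin, a subunit of the chromosomal passenger complex. The promoters of 3 of them are printed because they hold the letters that the genes of mitosis share. Each runs 5′ to 3′ along its gene, from 250 bases before the RefSeq start to 50 after it (GRCm38.p6), with matches in capitals to TTTGAA or TTCGAA (the CHR), CCAAT, and TTTCCCGC, TTTCGCGC, TTTGCCGC or TTTGGCGC (an E2F site), each on either strand. They lie at chr7:135716330-135716629 (Mki67, minus strand), chr11:99024140-99024439 (Top2a, minus strand) and chr10:69352863-69353162 (Cdk1, minus strand).
Mki67: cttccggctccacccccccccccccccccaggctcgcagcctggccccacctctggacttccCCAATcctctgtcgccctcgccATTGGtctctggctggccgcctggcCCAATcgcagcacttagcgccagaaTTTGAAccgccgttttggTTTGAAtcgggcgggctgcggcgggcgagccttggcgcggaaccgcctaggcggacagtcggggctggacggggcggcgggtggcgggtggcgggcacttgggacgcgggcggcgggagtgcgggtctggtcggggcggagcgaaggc
Top2a: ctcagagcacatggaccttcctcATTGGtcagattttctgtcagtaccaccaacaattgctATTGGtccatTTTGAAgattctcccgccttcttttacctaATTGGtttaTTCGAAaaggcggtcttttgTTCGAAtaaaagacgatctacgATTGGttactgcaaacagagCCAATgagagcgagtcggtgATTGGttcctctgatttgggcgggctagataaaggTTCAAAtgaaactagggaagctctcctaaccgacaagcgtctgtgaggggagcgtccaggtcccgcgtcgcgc
Cdk1: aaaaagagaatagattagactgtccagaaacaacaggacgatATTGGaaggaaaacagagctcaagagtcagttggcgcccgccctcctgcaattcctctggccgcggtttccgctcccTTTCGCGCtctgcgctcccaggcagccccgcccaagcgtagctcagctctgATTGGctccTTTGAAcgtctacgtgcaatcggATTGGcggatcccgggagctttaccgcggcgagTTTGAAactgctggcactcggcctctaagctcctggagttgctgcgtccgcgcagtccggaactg
Mki67 has 2 matches to the CHR and 3 to CCAAT, Top2a has 4 and 6, and Cdk1 has 2 and 3. Cdk1 also has 1 match to the E2F letters. These letters are not in the window of Birc5. Of 72 mitosis genes listed, 59 had a window in the RefSeq table. A CHR match stood in 42 of them (71.2%), against 19.4% of 27025 promoters of the same length, and CHR with CCAAT stood in 36 (61%), against 7.7%. An E2F match stood in 2 of the 59 (3.39%), against 2.32%. Among the 6182 promoters of genes measured in either comparison of the cycling Foxp3-positive cells, the shares were 14.5% for the CHR, 6.34% for CHR with CCAAT and 4.72% for E2F, so the E2F share of the mitosis genes lay between these backgrounds. A match is a description of the letters and no evidence that a factor binds. For the replication genes (38 of 50 with a window) and the Treg core genes (20 of 32), fewer than 80% had a window, so this check is void for them.

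The cells carried the RNA that their label names. Mki67 stood at 558 CPM (UMIs scaled to a group total of 1000000; interval 544 to 573) in cycling Foxp3-positive cells and at 482 CPM in cycling Foxp3-negative cells, Top2a at 691 and 627, Birc5 at 546 and 443, and Cdk1 at 247 and 206. Both groups were chosen for these genes, so the values only describe the choice. The T cell receptor chain Trac was at 669.9 CPM in cycling Foxp3-positive cells, 795 in non-cycling Foxp3-positive cells and 713 in cycling Foxp3-negative cells. Cd4 RNA was found in 375 of the 537 cells (69.8%), 53.8% of non-cycling Foxp3-positive cells and 81.1% of cycling Foxp3-negative cells. With each cell thinned to 4000 UMIs these shares were 30.7% (26.7 to 34.8), 42.4% (39.6 to 45.3) and 42.1% (38.4 to 45.9), against 4.97% of B cells. The Treg markers that the rule did not use, Il2ra, Ctla4, Ikzf2 and Tnfrsf18, were each at least 2-fold above their level in cycling Foxp3-negative cells, with values given below.

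Cycling cells were deeper. The median was 16707 UMIs and 3692 genes in cycling Foxp3-positive cells, 5600 UMIs and 1845 genes in non-cycling Foxp3-positive cells, and 15810 UMIs and 3513 genes in cycling Foxp3-negative cells; larger cells and more captured RNA cannot be told apart here. The whole library of 15002 barcodes had a median of 5673 UMIs per barcode and a range of 500 to 78924. To compare shares of cells with a UMI, each cell was thinned at random to 4000 UMIs. This left out 12 shallower cells of the cycling Foxp3-positive group, 323 of the non-cycling Foxp3-positive group and 27 of the cycling Foxp3-negative group.

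RNA of other cells was present in all groups. Foxp3 had a UMI in 2.77% of 505 B cells (median 4753 UMIs per cell; 2.05% after thinning), a type that should lack it, at 4.41 CPM. The 17 genes of the B cell list summed to 1056 CPM in cycling Foxp3-positive cells, 1293 in non-cycling Foxp3-positive cells and 543 in cycling Foxp3-negative cells (0 to 478, 0 to 278 and 0 to 678 UMIs per cell). Within it, immunoglobulin mu (Ighm) made 476, 654 and 143 CPM against 1351 in B cells. Cd79b made 27.6, 24.4 and 6.74 CPM against 1505, while Ms4a1 had 11 UMIs in all 537 cells. The 18 myeloid genes summed to 415, 621 and 1187 CPM (0 to 277, 0 to 612 and 0 to 9253 UMIs per cell), and to 389.9, 558 and 464 CPM without the top cell of each group, with Itgax and Clec9a at 0 in the cycling Foxp3-positive cells. The 16 genes of NK, CD8 and gamma-delta cells summed to 108, 126 and 239 CPM. Of these, Ncr1, Trdv4, Klra4, Klra8 and Zbtb16 were at 0 in the cycling Foxp3-positive cells. The CD8 chain gene Cd8b1 had a UMI in 113 of the 537 cells (21.0%), 8.25% of non-cycling Foxp3-positive and 11.6% of cycling Foxp3-negative cells. After thinning these shares were 6.10% (4.21 to 8.50), 6.15% (4.86 to 7.65) and 3.35% (2.14 to 4.99), against 2.05% of B cells. Cd8a had a UMI in 4 of the 537 cells. The 10 genes of the thymocyte list summed to 316, 305 and 203 CPM, of which Il2ra, also a Treg gene, made 204, 212 and 48.8. Of its defining members, the recombinase genes Rag1 and Rag2 were at 0 in all 3 groups, and Ptcra had UMIs in 4 of the 537 cells. Plasma cell genes summed to 107, 143 and 129 CPM and stromal genes to 36.6, 68.4 and 47.7 CPM. The 1080 cells with the highest simulated doublet scores, 8.19% of all cells and 7.23% of T cells, took in 12.5% of cycling Foxp3-positive cells, 10.2% of non-cycling Foxp3-positive cells and 9.68% of cycling Foxp3-negative cells. The part of free RNA and doublets in the results was not tested.

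Most of the cells passed the rule with room to spare. Of the 4 cycling genes, 2 were found in 129 cells, 3 in 74 and all 4 in 334. Cells with 2 of the 4, just inside the threshold, had a median of 9921 UMIs, of which 0.0973% came from the 50 replication genes and 0.238% from the 72 mitosis genes. The 526 Foxp3-positive cells with 1 of the 4, just outside, had 6572 UMIs, 0.0853% and 0.169%, while cells with all 4 had 20543 UMIs, 0.589% and 1.62%. The cells with 2 of the 4 thus stood nearer to those outside the threshold than to those with all 4. Foxp3 itself was at 260.2 CPM in cells with 2 of the genes, 189 with 3 and 147 with all 4; 1 UMI is a larger part of a shallower cell, and every cell had to have 1.

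**Figure D1:**
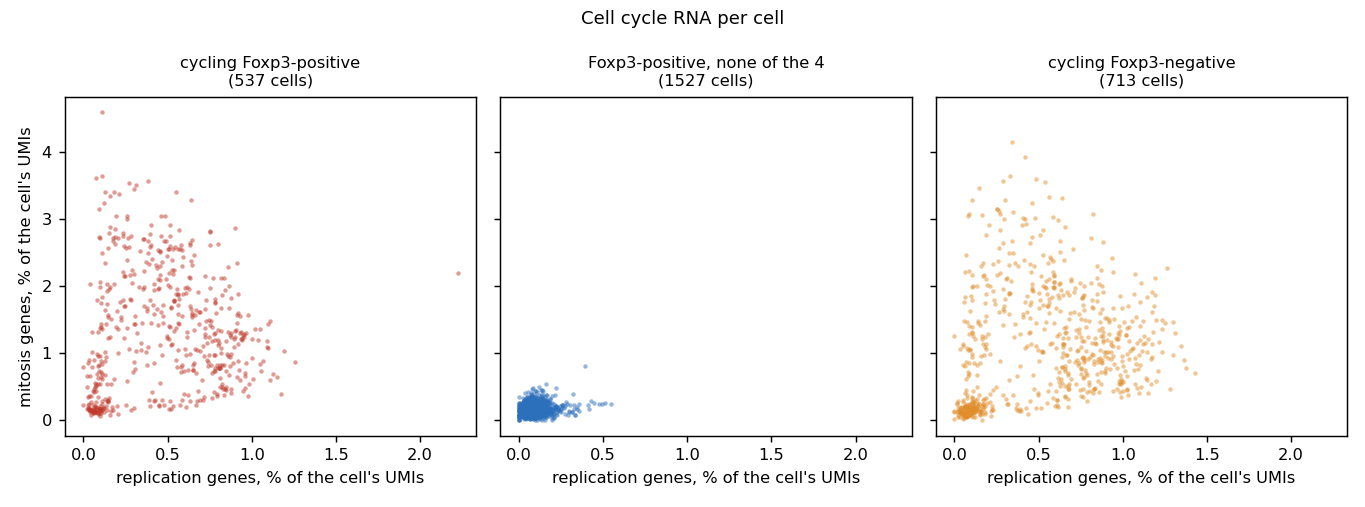
Each point is a cell; the x axis gives the percent of its UMIs from 50 replication genes, the y axis the percent from 72 mitosis genes, in cycling Foxp3-positive cells (left), non-cycling Foxp3-positive cells (middle) and cycling Foxp3-negative cells (right). Both cycling groups spread over the plane with a dense cluster near the origin, where most non-cycling cells lie.

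Most cells had more RNA of mitosis genes than of replication genes. At 4000 UMIs per cell they had a median of 19.0 UMIs of replication genes and 49.0 of mitosis genes, against 3 and 6 in non-cycling Foxp3-positive cells and 19.5 and 39.5 in cycling Foxp3-negative cells. Replication genes outnumbered mitosis genes in 85 of 525 cycling Foxp3-positive cells, or 16.2% (13.1 to 19.6), and in 21.6% (18.6 to 24.8) of cycling Foxp3-negative cells, so the intervals overlapped. Cells with none of the 4 cycling genes had like shares, 17.0% (14.9 to 19.3) when Foxp3-positive and 21.2% (20.1 to 22.4) when Foxp3-negative, so the share alone is not read as a cell cycle stage. The 2 classes are ends of a range: 89 of the 525 cells lay within 5 UMIs of equal sums. The per-cell plot of cell cycle RNA shows this spread, with no gap between replication-rich and mitosis-rich cells.

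Treg genes were present at both ends of this range. Foxp3 stood at 161 CPM (142 to 182) in the 85 replication-higher cells and 167 CPM (159 to 176) in the 428 mitosis-higher cells, Ctla4 at 288 and 279 CPM, Gzmb at 587 and 549 CPM, and Itgae at 84.9 and 85.9 CPM. The intervals of each of these 4 genes overlapped. Il2ra was at 239 CPM (215 to 264) and 198 (188 to 207), Tnfrsf18 at 408 (377 to 440.3) and 312 (301 to 325), and Ikzf2 at 511 (476 to 547) and 575 (559 to 591), whose intervals lay apart. Tnfrsf4, the costimulatory receptor OX40, was higher at 925 CPM (878 to 973) in replication-higher cells, against 547 (532 to 563). Cenpf, a kinetochore protein of the mitosis list, was at 13.3 and 292 CPM and Ccnb2, a mitotic cyclin, at 67.2 and 288 CPM, which restates how the cells were divided.

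Foxp3-positive cells were found cycling more often than Foxp3-negative T cells, by an amount that depended on depth. At full depth 20.7% of Foxp3-positive cells cycled (537 of 2590) and 8.15% of Foxp3-negative cells did (713 of 8745; 7.59 to 8.75). A deep cell passes both the Foxp3 and the cycling gate more easily. With both gates applied after thinning to 4000 UMIs, the shares were 14.9% (236 of 1584; 13.2 to 16.7) and 8.79% (691 of 7863; 8.17 to 9.44). At 2000 UMIs they were 7.11% (5.74 to 8.70) and 5.35% (4.91 to 5.83), and at 8000 UMIs, where shallower cells drop out, 41.3% (37.8 to 44.8) and 28.4% (26.5 to 30.3). The share was higher among Foxp3-positive cells at each depth. The intervals did not overlap at 4000 and 8000 UMIs or at full depth; at 2000 UMIs they overlapped narrowly, from 5.74 to 5.83.

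**Figure D2:**
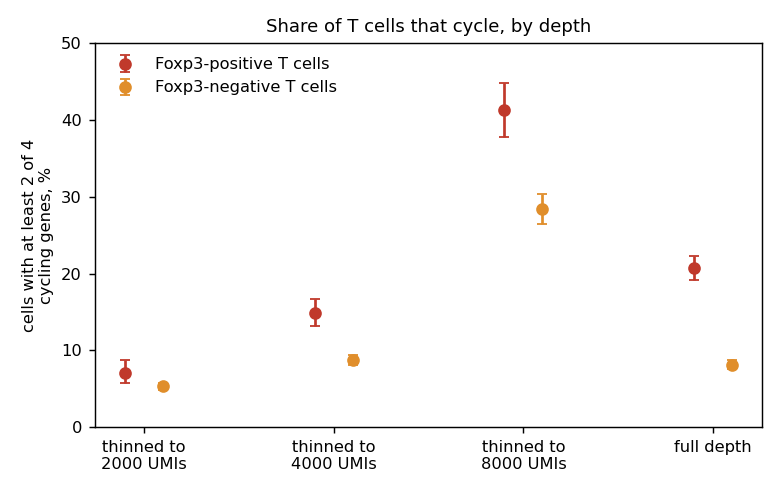
Percent of T cells with at least 2 of the 4 cycling genes (y axis, exact binomial 95% intervals) among Foxp3-positive and Foxp3-negative T cells, with gates applied after thinning to 2000, 4000 or 8000 UMIs and at full depth (x axis). The Foxp3-positive share lies above at each depth, from 7.11% against 5.35% at 2000 UMIs to 41.3% against 28.4% at 8000.

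Against cycling Foxp3-negative cells, cycling Foxp3-positive cells had higher CPM of several Treg genes, and few genes of any kind were far apart. Of 7260 genes with at least 10 CPM in either group, 142 (1.96%) were at least 2-fold apart on the scale of log2(CPM + 5), 60 (0.826%) higher and 82 (1.13%) lower. None of the 50 replication, 71 measured mitosis or 18 measured histone genes was 2-fold apart in either direction, with medians of -0.16, 0.18 and 0.15, beside -0.01 over all genes. Of 24 measured Treg core genes 8 were higher and none lower (median 0.69), and of 37 measured effector Treg genes 13 were higher and 1 lower (median 0.48). Foxp3 chose the cells. It is among the 60 higher genes and is no part of the list counts. A gene under 10 CPM in 1 group passed the filter only through the other, so its direction was fixed. Among those named below, Ikzf4, Areg, Penk, Neb and Cd79b passed only through the cycling Foxp3-positive group. Such members were not taken out of the Treg lists. Nothing is therefore read from the counts and medians of these lists, here or in the comparison that follows. Set side by side, non-cycling Foxp3-positive over non-cycling Foxp3-negative cells had 210 of 7309 genes (2.87%) 2-fold apart, 2.42% higher and 0.451% lower, with 18 of 28 Treg core genes and 25 of 37 effector Treg genes higher.

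Among the factors and receptors of the Treg core, Ikzf2, which encodes the transcription factor Helios, stood at 566 CPM (552 to 581) in cycling Foxp3-positive cells and 119.7 (114 to 126) in cycling Foxp3-negative cells, a log2 ratio of 2.20. Its relative Ikzf4 (Eos, a partner of Foxp3) was at 35.7 and 5.87 CPM, a log2 ratio of 1.91. Il2ra, the alpha chain of the interleukin-2 receptor, was at 204 CPM (196 to 213) and 48.8 (45.0 to 52.8), a log2 ratio of 1.96. All of these intervals lay apart. Ctla4, the inhibitory receptor that takes costimulatory ligands off antigen-presenting cells, was at 286 and 73.0 CPM, a log2 ratio of 1.90. Among receptors of the TNF family, Tnfrsf9 (4-1BB) was at 159 and 36.9 CPM, Tnfrsf18 (GITR) at 328 and 121, Tnfrsf4 at 607 and 237 and Tnfrsf1b at 57.6 and 17.9. These were the 4 of 22 measured genes of the list of TNF receptor family and costimulatory genes that were 2-fold higher, with none 2-fold lower.

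Several genes of effector Treg cells were also higher. Itgae, the integrin chain CD103 that binds epithelial cadherin, was at 85.9 CPM (80.4 to 91.7) in cycling Foxp3-positive cells and 12.1 (10.3 to 14.2) in cycling Foxp3-negative cells, a log2 ratio of 2.41. Gzmb, the protease granzyme B, was at 549 and 114 CPM (2.22), and Klrg1, an inhibitory receptor of differentiated T cells, at 78.4 and 16.8 CPM (1.94). Areg, the tissue repair factor amphiregulin, was at 51.3 and 8.54 CPM (2.06). Penk, the precursor of enkephalin peptides, was at 52.1 and 6.66 CPM (2.29), and Neb at 31.1 and 5.40 CPM (1.80). Ighm (1.70) and Cd79b (1.47) were also on this side, as given above. Cxcr6, a chemokine receptor, was the 1 effector Treg gene that was 2-fold lower, at 73.6 and 171 CPM.

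Helper T cell genes stood on the other side. Of 16 measured genes of helper effector cells 8 were lower and none higher (median -1.12). Of 25 follicular genes 10 were lower and none higher (median -0.72). Of the genes named here, Il22, Ifng, Il17f, Il21, Tox2 and Bcl6 were under 10 CPM in cycling Foxp3-positive cells. They passed the filter only through the other group and could only be lower, so nothing is read from these counts and medians. Il22 was at 5.09 CPM in cycling Foxp3-positive cells and 62.7 in cycling Foxp3-negative cells, Ifng at 5.48 and 38.5, Il17f at 3.36 and 26.2, and Il21, which helps germinal centre B cells, at 3.65 and 23.1. Pdcd1 (PD-1) was at 35.3 and 90.8 CPM, the follicular homing receptor Cxcr5 at 12.8 and 38.2, Tox2 at 8.94 and 41.7, and Bcl6, the factor that directs follicular cells, at 3.17 and 12.6. Tcf7, a factor of resting and follicular T cells, was at 47.9 CPM (43.8 to 52.3) against 172 (165 to 179).

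The neutrophil genes with the lowest ratios rested on 1 cell each. S100a9 had 5.48 CPM in cycling Foxp3-positive cells and 384 CPM in cycling Foxp3-negative cells, where 1 cell held 98.7% of the 4903 UMIs. Without the top cell of each group the log2 ratio of S100a9 was 0.03 rather than -5.21. The same held for S100a8, Ngp, Camp, Lcn2 and the chemokine gene Ccl20, which stood between -5.10 and -3.03 with the top cells and between -0.41 and 0.06 without the top cells. These 6 genes are among the 82 counted as lower.

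**Figure D3:**
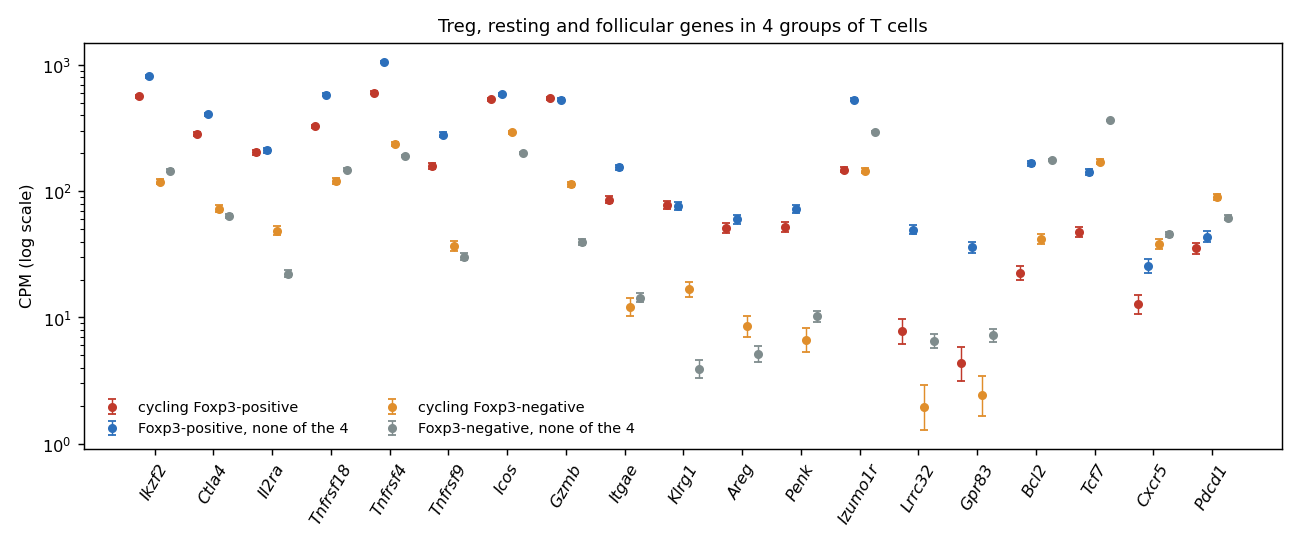
Summed UMIs in CPM (y axis, log scale, with exact Poisson 95% intervals) of 19 named genes (x axis) in cycling Foxp3-positive, non-cycling Foxp3-positive, cycling Foxp3-negative and non-cycling Foxp3-negative T cells. Treg genes such as Ikzf2 (566, 815, 119.7 and 146) lie high in both Foxp3-positive groups, while Bcl2 (22.7, 167, 41.9 and 178) lies low in both cycling groups.

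Among cycling cells, some Treg genes were higher in cells with more Foxp3 UMIs and others were not. Ikzf2 stood at 119.7 CPM in the 713 cells with no Foxp3 UMI, 421 in the 145 with 1, 499.8 in the 99 with 2, 605 in the 160 with 3 or 4 and 701 in the 133 with 5 or more. Ctla4 stood at 73.0, 201, 256, 318 and 348 CPM over the same groups, and Il2ra at 48.8, 137, 215, 181 and 277 CPM, with 2 of its neighbours out of order. Il2rb, the beta chain of the interleukin-2 receptor, stood at 142, 165, 159.7, 159 and 213 CPM, and Nrp1, a surface marker of many Treg cells, at 39.6, 52.4, 40.2, 42.2 and 47.1 CPM. Cells with a single Foxp3 UMI, just inside the Foxp3 threshold, were thus well above the cells just outside it in Ikzf2, Ctla4 and Il2ra. Median depth over the same groups was 15810, 13733, 16666, 15928 and 19604 UMIs. The 145 cells with a single Foxp3 UMI are part of the 537.

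Against non-cycling Foxp3-positive cells, the contrast that the 4 genes defined, the cell cycle program filled the higher side. Of 7670 measured genes 886 (11.6%) were 2-fold apart, 575 (7.50%) higher and 311 (4.05%) lower; with median-of-ratios scaling, which moved the median of all genes from -0.03 to 0.07, these were 676 and 227, or 74.9% higher in place of 64.9%. Of 50 replication genes 47 were higher, of 71 measured mitosis genes 69 and of 18 measured histone genes all 18, with median log2 ratios of 2.25, 3.38 and 3.04. Since the cells were chosen by their cycling genes, nothing is read from these counts. The linker histone gene Hist1h1b was at 1524 CPM in cycling Foxp3-positive cells and 18.8 in non-cycling ones, Rrm2, a subunit of the enzyme that makes DNA precursors, at 340.2 and 8.01, the mitotic ubiquitin-conjugating enzyme gene Ube2c at 571 and 14.1, and Stmn1, which destabilises microtubules, at 1060 and 30.4.

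**Figure D4:**
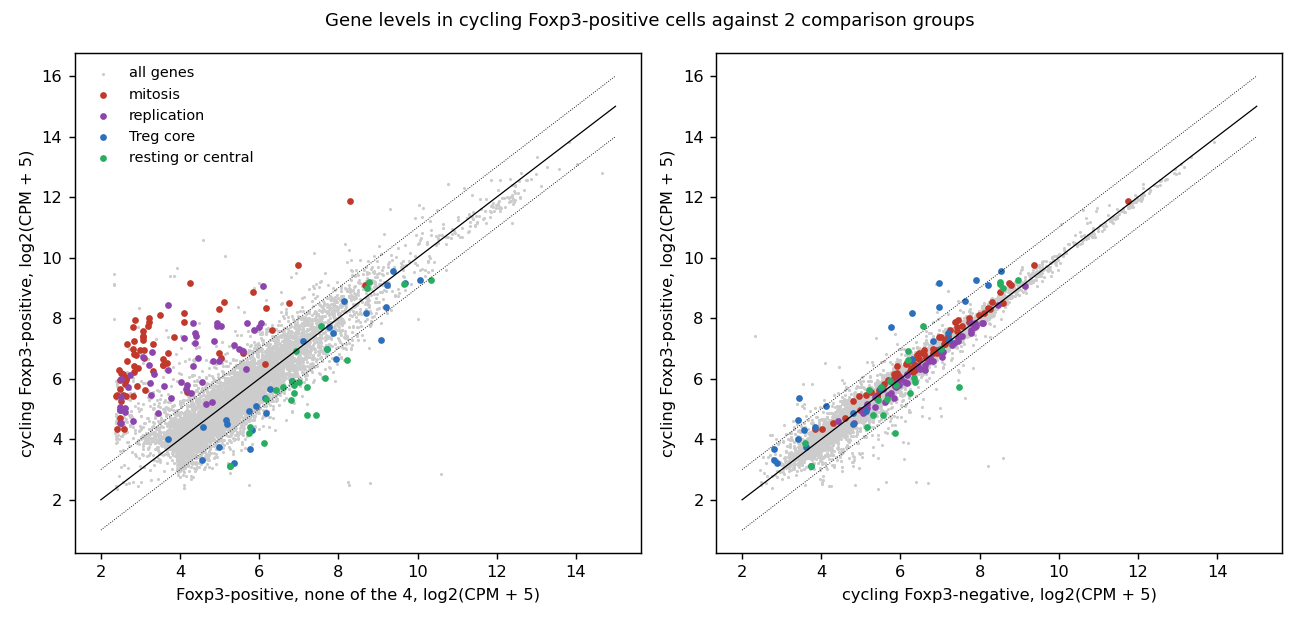
Each point is a gene, with its log2(CPM + 5) in cycling Foxp3-positive cells on the y axis and in the comparison group on the x axis: non-cycling Foxp3-positive cells (left) and cycling Foxp3-negative cells (right); the solid line marks equal levels and the dotted lines 2-fold. On the left, 47 of 50 replication genes and 69 of 71 measured mitosis genes lie above the upper dotted line. On the right these genes lie along the diagonal, and 8 of 24 measured Treg core genes lie above the upper dotted line. The counts describe the plot, and nothing is read from them.

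The growth machinery was higher in the cycling cells, with most genes less than 2-fold apart. Of 29 measured nucleotide and one-carbon genes 14 were 2-fold higher (median 0.97), and of 28 chaperone genes 9 (median 0.69). None of 32 proteasome genes was 2-fold apart (median 0.68), though 31 of the 32 lay above 0, and of 37 oxidative phosphorylation genes 2 were 2-fold higher (median 0.61). Phgdh, which starts serine synthesis, was at 359 CPM in cycling Foxp3-positive cells and 91.1 in non-cycling ones, and the chaperone gene Hsp90aa1 at 966 and 315. Of 20 measured glycolysis genes 5 were higher, among them Tpi1 at 292 and 97.0 CPM, and 2 lower, among them the glucose transporter gene Slc2a3 at 13.7 and 38.7 CPM. Ribosomal protein genes, 40 of 40 measured, had a median of -0.25.

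**Figure D5:**
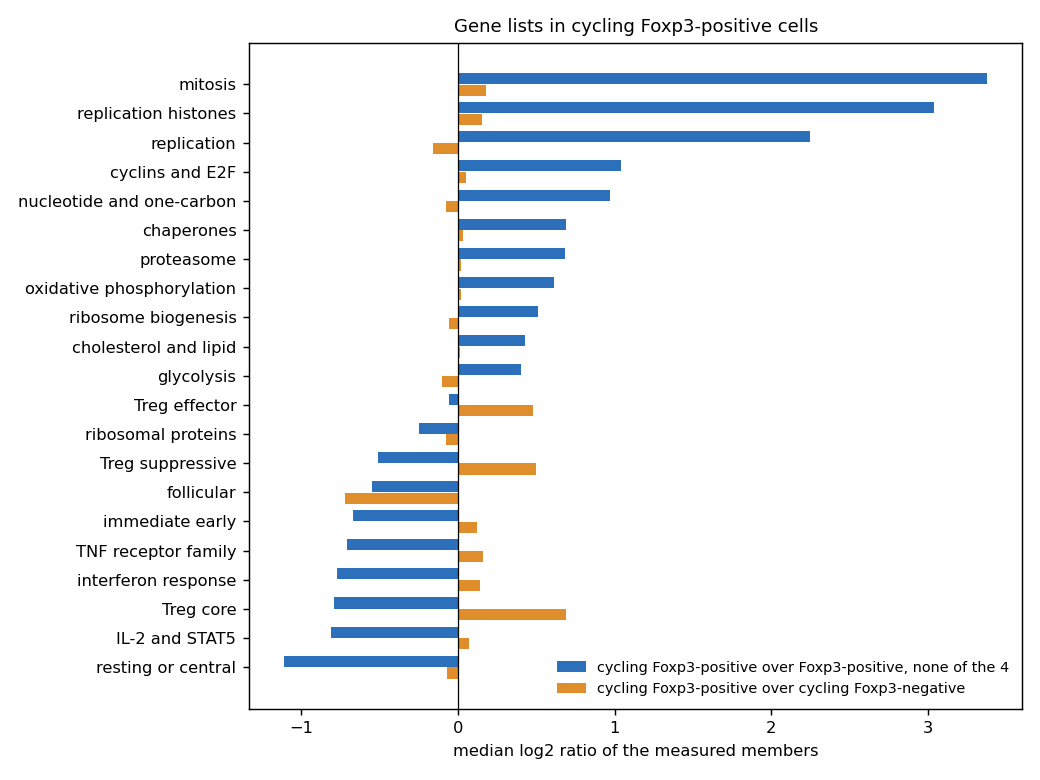
Median log2 ratio (x axis) of the measured members of 21 gene lists (y axis) in cycling Foxp3-positive cells over non-cycling Foxp3-positive cells (upper bar of each pair) and over cycling Foxp3-negative cells (lower bar). Cell cycle lists stand apart in the first comparison (mitosis 3.38 against 0.18), and the Treg core list has opposite signs (-0.79 against 0.69). Nothing is read from the Treg core medians, since the filter fixed the direction of members under 10 CPM in 1 group.

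Several genes of resting T cells had lower CPM in cycling Foxp3-positive cells than in non-cycling ones. Of 24 genes of resting or central Treg cells 14 were 2-fold lower and none higher (median -1.11). Bcl2, which keeps resting lymphocytes alive, was at 22.7 CPM (19.9 to 25.8) in cycling Foxp3-positive cells and 167 (159 to 175) in non-cycling ones, a log2 ratio of -2.63. Igfbp4 was at 22.8 and 144 CPM, Bach2, a repressor that maintains quiescent T cells, at 3.65 and 33.3, and Il7r, the receptor for the survival cytokine interleukin-7, at 93.1 and 294. The antiproliferative gene Btg1 was at 246 and 1021 CPM. Ccnd2, a D-type cyclin gene rather than a gene of resting cells, was at 285 and 592 CPM. It had a UMI in 90.1% of cycling and 85.6% of non-cycling Foxp3-positive cells, and in 60.6% and 82.1% after thinning. Since cycling cells were deeper, a lower CPM need not mean fewer UMIs per cell. Bach2, under 10 CPM in cycling Foxp3-positive cells, passed the filter only through the non-cycling group. Any list member with such a level could likewise only be lower. Nothing is therefore read from the count and median of the resting list, here or in the comparison that follows. The same resting list compared in cycling over non-cycling Foxp3-negative cells had 17 of 24 members lower (median -1.49), in a comparison with 956 of 7597 genes (12.6%) 2-fold apart, 9.73% higher and 2.86% lower.

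As a part of each group's UMIs, the Treg core genes named here ranged from close to their level in non-cycling Treg cells to far below it. The median cell held 16707 UMIs in the cycling group and 5600 in the non-cycling one. A lower CPM here therefore need not mean fewer UMIs of that gene per cell. Of 29 measured members 9 were 2-fold lower and none higher (median -0.79). Il2ra was near its level, at 204 CPM (196 to 213) in cycling Foxp3-positive cells and 212 (203 to 221) in non-cycling ones. Ikzf2 was at 566 and 815 CPM, Ctla4 at 286 and 408, Tnfrsf18 at 328 and 586, and Tnfrsf4 at 607 and 1057, each lower by less than 2-fold. Izumo1r, the folate receptor FR4, was at 149 CPM (142 to 157) against 533 (518 to 548). Lrrc32, which encodes the latent TGF-beta docking receptor GARP, was at 7.78 CPM (6.18 to 9.67) against 49.8 (45.5 to 54.5), and Gpr83 at 4.32 against 36.0. Lrrc32 and Gpr83 were under 10 CPM in the cycling group and passed the filter only through the non-cycling one. Such members could only be lower and were not taken out, so nothing is read from the list's count and median. With each cell thinned to 4000 UMIs, so that deep cells weigh no more than others, the list's median was -0.46, under the same limit.

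Effector Treg genes as a list stood near 0, and the sign of their median depended on how cells were weighted. Of 38 measured members 4 were 2-fold higher and 1 lower, with a median of -0.06 from summed UMIs, 0.19 from thinned cells and 0.04 with median-of-ratios scaling. The 1 lower gene was Il10, at 2.31 CPM in cycling Foxp3-positive cells and 33.2 in non-cycling ones, where 1 cell held 218 of the 319 UMIs; without the top cell of each group its log2 ratio was -1.14. Lgals1, encoding galectin-1, was at 3442 CPM (3407 to 3478) against 1040 (1020 to 1061), Lgals3 at 353 against 89.4, and Anxa2 at 329 against 69.7. Gzmb stood at 549 and 532 CPM, Klrg1 at 78.4 and 76.8, and Itgae at 85.9 and 155.

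A larger share of the cycling Foxp3-positive cells had a UMI of at least 1 of 3 effector markers, while the order of the summed levels depended on thinning. At 4000 UMIs per cell, 67.0% (62.8 to 71.1) of cycling Foxp3-positive cells had a UMI of Klrg1, Itgae or Gzmb, against 47.3% (44.5 to 50.2) of non-cycling ones and 19.1% (16.2 to 22.2) of cycling Foxp3-negative cells. At full depth the shares were 82.5%, 51.7% and 33.4%. The 3 genes differed after thinning. Gzmb had a UMI in 49.9% of cycling and 29.7% of non-cycling Foxp3-positive cells, and Klrg1 in 21.1% and 13.0%. Itgae went the other way, at 30.1% (26.2 to 34.2) and 34.6% (31.9 to 37.3), with overlapping intervals. The 3 genes summed to 713 CPM in cycling Foxp3-positive cells and 763 in non-cycling ones, and to 885 and 790.3 CPM after thinning. The sum was thus lower before thinning and higher after it, and no order between these groups is read from the shares. For Gzmb, the tenth of cells with the most UMIs held 53.6% of its UMIs in the cycling Foxp3-positive group and 79.2% in the non-cycling one. In B cells Gzmb had a UMI in 1.46% after thinning, Klrg1 in 0.292% and Itgae in 0.585%.

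Follicular-type cells were few. Cxcr5 and Pdcd1 were found together in 6 of 525 thinned cycling Foxp3-positive cells, or 1.14% (0.421 to 2.47), in 1.33% (0.761 to 2.15) of non-cycling Foxp3-positive cells and in 6.85% (5.08 to 9.01) of cycling Foxp3-negative cells. At full depth the shares were 6.15%, 3.27% and 19.8%. After thinning, Pdcd1 had a UMI in 11.2% of cycling Foxp3-positive cells and 0.877% of B cells; B cells express Cxcr5 themselves (25.7%, against 4.0% of cycling Foxp3-positive cells) and give no background for it. Of 28 Foxp3-positive cells with both genes after thinning, 3 cycled (10.7%, 2.27 to 28.2), against 169 of 904 cells (18.7%, 16.2 to 21.4) with an effector marker and 67 of 664 cells (10.1%, 7.91 to 12.6) with neither. The intervals of the effector-marker cells and of the cells with neither lay apart. Sostdc1 had 3 UMIs in 3 of the 537 cells (0.559%), against 1.31% of non-cycling Foxp3-positive cells, 4.21% of cycling Foxp3-negative cells and 1.58% of B cells, so its share in the cycling Foxp3-positive cells is not read as expression.

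Several genes lowest against the non-cycling Treg cells rested on few cells of that group. The haemoglobin gene Hbb-bs had 23 UMIs in cycling Foxp3-positive cells and 14691 in non-cycling ones, of which 1 cell held 37.1%. Up to 9153 UMIs of erythroid and platelet genes were found in 1 non-cycling cell, against at most 2 in a cycling Foxp3-positive cell. Il17a had 7 and 470 UMIs, with 85.3% of the UMIs of the non-cycling group in 1 cell. Interferon response genes, 27 measured, had 8 members 2-fold lower and none higher (median -0.77), among them Ifit3 at 14.7 and 79.1 CPM. Ifit3 did not rest on few cells: after thinning it had a UMI in 6.29% of cycling and 17.5% of non-cycling Foxp3-positive cells. In cycling over non-cycling Foxp3-negative cells, 4 of 28 measured interferon response genes were 2-fold lower and none higher (median -0.63).

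Bcl2l11, encoding the death-promoting protein BIM, was at 8.46 CPM in cycling Foxp3-positive cells, 26.6 in non-cycling Foxp3-positive cells and 9.08 in cycling Foxp3-negative cells. Cdkn2a and Cdkn2c, which encode inhibitors of cyclin-dependent kinases, were at 29.2, 4.47 and 16.7 CPM and at 97.2, 26.4 and 82.2 CPM. Of 19 measured genes of kinase inhibition and cell cycle exit, 4 were 2-fold higher than in non-cycling Foxp3-positive cells and 3 lower (median -0.17). In that comparison Bcl2l11 passed the filter only through the non-cycling group and Cdkn2a only through the cycling one, so their directions were fixed. Ccr10, a skin-homing chemokine receptor, was at 30.1, 13.4 and 12.7 CPM.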

How the data were processed

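Values come from 1 single-cell library; the bulk and ATAC samples were not used. Its chemistry was 10x Genomics 3′, version 2, per the labels' protocols. Cell Ranger 2.1.0, Seurat 2 and the builds mm9 and mm10 appear in the submitters' processing notes without a role; Cell Ranger 3.1.0 wrote the matrix, per the file headers. Its deposited values are raw UMI counts per gene and barcode, and how reads were assigned to genes is not stated.

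Barcodes with at least 500 genes and under 10% mitochondrial UMIs were kept: 835 had fewer genes and 977 of the rest more mitochondrial UMIs. All 15002 barcodes are distinct and belong to 1 library. For 35 symbols on several lines the first line was used. No doublets were removed; 2 doublets per cell were simulated to score them, and removal of the 1080 cells (8.19%) with the highest scores was an alternative. UMIs were summed per group and scaled to 1000000 per group (CPM). Log2 ratios used a pseudocount of 5 CPM, which understates the ratio of low genes, and genes with at least 10 CPM in either group; a gene 2-fold apart was counted. A gene under 10 CPM in 1 group passed only through the other, so the filter fixed the direction of its ratio. The count procedure was tested on simulated data. Shares were computed at full depth and after thinning each cell to 4000 UMIs.

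The members and the 35 gene lists, of which 847 of 849 entries matched the features, were chosen with earlier results of these data known. Named genes were the 12 highest and 12 lowest ratios of each comparison, with and without cell cycle genes and leaving out receptor and immunoglobulin segments, predicted models, mitochondrial and sex-specific genes; of each list, the 4 or fewer genes farthest from equal levels; and fixed marker genes. Genes given by Foxp3 UMIs, by stage or beside these for context were chosen after values were seen. Promoter sequences are RefSeq's, assembly GRCm38.p6. Python 3.11.15, numpy 2.4.6, scipy 1.17.1, pandas 2.3.3 and scikit-learn 1.9.0 were used.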

Additional observations from a re-analysis of the deposited data

How the results depend on the processing

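No paired analysis was possible because there is 1 library and no replicate, and no result comes from a test. The number of cycling Foxp3-positive cells, 537, moved with depth and with a filter on other lineages: 236 were left with gates applied after thinning to 4000 UMIs, and 80 without cells holding 2 or more UMIs of other lineages, whose marker Cst3 stood at 209.6 CPM in them, 154 in non-cycling Foxp3-positive cells and 161 in cycling Foxp3-negative cells. Chosen after seeing the data were a filter at 0.1% of UMIs, which left out 3 of the 537, the lists with gates after thinning or at least 3 of the 4 genes, and leaving out the top cell per gene or list. The share of Foxp3-positive minus Foxp3-negative cells that cycle, 12.6 percentage points, was 10.4 with at least 3 of the 4 genes, 16.8 with at least 2 Foxp3 UMIs, 6.11 and 1.76 after thinning to 4000 and 2000 UMIs, and 2.91 without the cells of 2 other-lineage UMIs. The 886 genes 2-fold apart from non-cycling Foxp3-positive cells were 443 with a pseudocount of 20 CPM and 476 at 50 CPM or more in 1 group; the 142 apart from cycling Foxp3-negative cells were 56 and 65, and 287 with the other-lineage filter, of which 62.4% were higher in place of 42.3%. In the first comparison 64.9% were higher, against 78.6% with a pseudocount of 20 CPM. The difference in cells with Cxcr5 and Pdcd1, cycling minus non-cycling Foxp3-positive, was -0.186 points at 4000 UMIs and -2.30 at 8000. Against cycling Foxp3-negative cells, 2 list medians and 3 genes turned: NK, CD8 and gamma-delta genes (3 measured) to 0.51 with gates after thinning, myeloid genes to 0.29 without cells over 0.1% other-lineage UMIs, and, without the top cell of each group, Lcn2 to 0.06, Ngp to 0.03 and S100a9 to 0.03. Without those cells S100a8, Camp and Ccl20 fell short of 2-fold. The cause of the other moves was not tested. Of 900 values computed under an alternative, 775 stayed close to the main value.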
